A study of Mus musculus with 109 samples.

Results

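The cytosolic ribosomal protein genes encode the protein subunits of the ribosome that translates nuclear mRNAs. They were taken as the rows of the count table that GENCODE M21 annotates as protein-coding and whose symbol is Rpl, Rps or Rplp followed by a number and at most 1 letter a, x or l. The rule found 78 genes of 37315, of which 48 belong to the large subunit (Rpl and Rplp) and 30 to the small subunit (Rps). Rpl24 also matches the rule but has no row. The rule leaves out core ribosomal proteins with other names such as Rpsa, Rack1 and Fau, which were followed as a companion list. Of the 78 genes, 75 passed the filter on low counts at day 2. The other 3 were the paralogs Rpl3l, with 0 to 13 counts in a WT PBS retina of day 2, Rpl39l, with 0 to 10, and Rpl10l, with 0 in every retina.

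The counts come from poly(A) RNA of whole retinas, taken after intravitreal injection in 64 mice that were 2 to 4 months old. WT mice were C57BL/6J, and eyes received 2 μL of PBS, of the cytokine TNF (0.05 μg/μL), of the cytokine IL1A (0.1 μg/μL) or of both together (IL1A+TNF). In batch 1, WT retinas of day 2 comprised 31 with PBS, 8 with TNF, 9 with IL1A and 10 with IL1A+TNF, WT retinas of day 14 comprised 7 with PBS and 6 with TNF, and those of day 35 comprised 6 with PBS and 9 with TNF. Batch 2, all of day 2, held WT retinas with PBS (5) or IL1A+TNF (6) and Sarm1-/- retinas with PBS (6) or IL1A+TNF (6). Sarm1-/- mice are deficient in Sarm1, an NADase that drives axon degeneration. Both sexes were present in every group, and 45 mice contributed both eyes. In the study's design, the eye opposite a cytokine injection received PBS as a control. The total count on genes ranged from 30014757 to 79064488 a retina, and batch 2 was the deeper batch (42875980 to 79064488). Sarm1 itself was at 37.1 to 52.9 CPM (the normalized read count, a gene's count over the TMM-scaled library size) in Sarm1-/- PBS retinas and at 105 to 124 CPM in WT PBS retinas of the same batch, so that the genotypes did not overlap.

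A ribosome holds 1 copy of most of its proteins, and their mRNAs share a pyrimidine tract at the very start (the TOP motif) through which mTORC1 signalling controls their translation together. The proteins Rplp0, Rplp1 and Rplp2 form the stalk that recruits elongation factors, and Rpl5 and Rpl11 travel with the 5S ribosomal RNA and can bind Mdm2 when assembly is disturbed. The retina is a neural tissue in which photoreceptors make up most of the cells. In such bulk samples, fewer cells of a type and less RNA per cell cannot be told apart.

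In WT PBS retinas of day 2 the 78 genes held 0.906% ± 0.0900 of all counts (SD, n = 31), with a lowest value of 0.771%, a median of 0.924% and a highest value of 1.11%. Per kilobase of the principal transcript, Rps15 (351 CPM per kb), Rplp1 (307 CPM per kb) and Rpl9 (303 CPM per kb) had the highest levels. Rpl3l (0.1001 CPM per kb), Rpl39l (0.0591 CPM per kb) and Rpl10l (0.0) had the lowest. These 3 low genes are paralogs of Rpl3, Rpl39 and Rpl10 that are known from muscle or testis. Rps27l, a paralog of Rps27 and a known p53 target, was the lowest of the genes that were tested, at 15.7 CPM per kb.

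Across these 31 PBS retinas, each from a different mouse, the 75 tested genes varied together. The median Pearson r between pairs of genes was 0.863 (from 0.405 to 0.973), and the median r of a gene with the mean of the others was 0.932. The lowest of these values were those of Rplp0 (0.729), Rps21 (0.731), Rps27l (0.793) and Rpl10 (0.802). For 5474 other genes at a similar level, the median r with the mean of the ribosomal protein genes was 0.0152. This mean also went with the share of counts from mitochondrially encoded genes (Pearson r = 0.734, Spearman rho = 0.812, n = 31, r = 0.756 without the 2 retinas farthest from the median share) and less with the total count (Pearson r = 0.25, Spearman rho = 0.292, and r = 0.140 without the 2 farthest retinas). These are descriptions over retinas that share the same scaling, and the part of either measure in the results that follow was not tested beyond the fits with them as a covariate.

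At day 2 the ribosomal protein genes were higher after IL1A+TNF than after PBS. Of 75 genes tested, 66 rose and none fell (limma, Benjamini-Hochberg FDR under 0.05), against 24.9% of all 19548 genes that rose. All 75 log2 fold changes were above 0. Their median was 0.23, a fold of 1.17, while the median of all genes was -0.02. The share of counts was 1.12% ± 0.131 (SD, n = 10) after IL1A+TNF, with 0.984%, 1.11% and 1.44% as the lowest, median and highest values. Its range overlapped that of the PBS retinas, whose highest value of 1.11% lay at the median of the treated ones. The highest value belonged to the treated eye of mouse 60212, and without this mouse 53 genes were called and the median log2 fold change was 0.19.

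**Figure D1:**
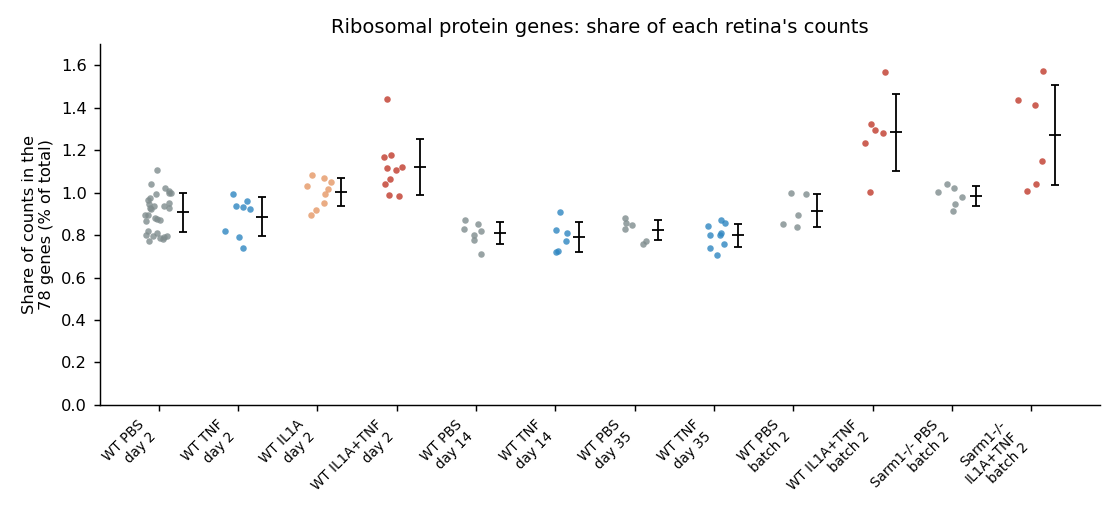
Share of each retina's counts that fell on the 78 ribosomal protein genes, in percent of the total count, by group. Points are retinas, and the bars at the right of each group are the mean ± SD. The groups with IL1A+TNF (1.12%, 1.28% and 1.27% on average) lie above their PBS groups (0.906%, 0.915% and 0.984%), with overlap in WT batch 1 and Sarm1-/- retinas but not in WT batch 2, and the retinas of days 14 and 35 lie lowest.

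The size of the change differed widely between genes. Rplp0, the central protein of the stalk (ENSMUSG00000067274, GRCm38 chr5:115559467-115563727, plus strand), was at 127, 168 and 226 CPM (lowest, median and highest of 31 PBS retinas) and at 239, 275 and 350 CPM in the 10 IL1A+TNF retinas. The groups did not overlap, and the log2 fold change was 0.68 (SE 0.08, limma FDR 9.27e-11, fold 1.6). Rps2, a small subunit protein at the mRNA entry side (ENSMUSG00000044533, chr17:24718116-24721929, plus strand), was at 160, 194 and 233 CPM after PBS and at 234, 283 and 491 CPM after IL1A+TNF. Again every treated retina was above every PBS retina, though by less than 1 CPM at the border (log2 fold change 0.63, SE 0.06, limma FDR 3.40e-12). Rps9 was the other gene without overlap (log2 fold change 0.44, SE 0.06, limma FDR 1.34e-08). Such a separation was found in 3 of the 75 genes and in 2.23% of all genes. In 37 of the 75 genes, all 10 treated retinas were above the mean of the PBS retinas. The share of all genes that met this was not computed, so this count describes the 75 genes only.

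The next in size were Rps27l, Rpl12 and Rplp1. Rps27l was at 4.97, 7.84 and 10.5 CPM after PBS and at 8.61, 10.9 and 14.4 CPM after IL1A+TNF (log2 fold change 0.53, SE 0.08, limma FDR 4.27e-07). Rpl12, a protein at the base of the stalk, was at 87.0, 111 and 130 CPM and at 122, 147 and 238 CPM (log2 fold change 0.52, SE 0.07, limma FDR 1.62e-09). In both genes the lowest treated retinas fell within the PBS range, and 10 of 10 were above the PBS mean. Rplp1 (log2 fold change 0.50) and Rplp2 (0.36), the other stalk proteins, also rose.

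**Figure D2:**
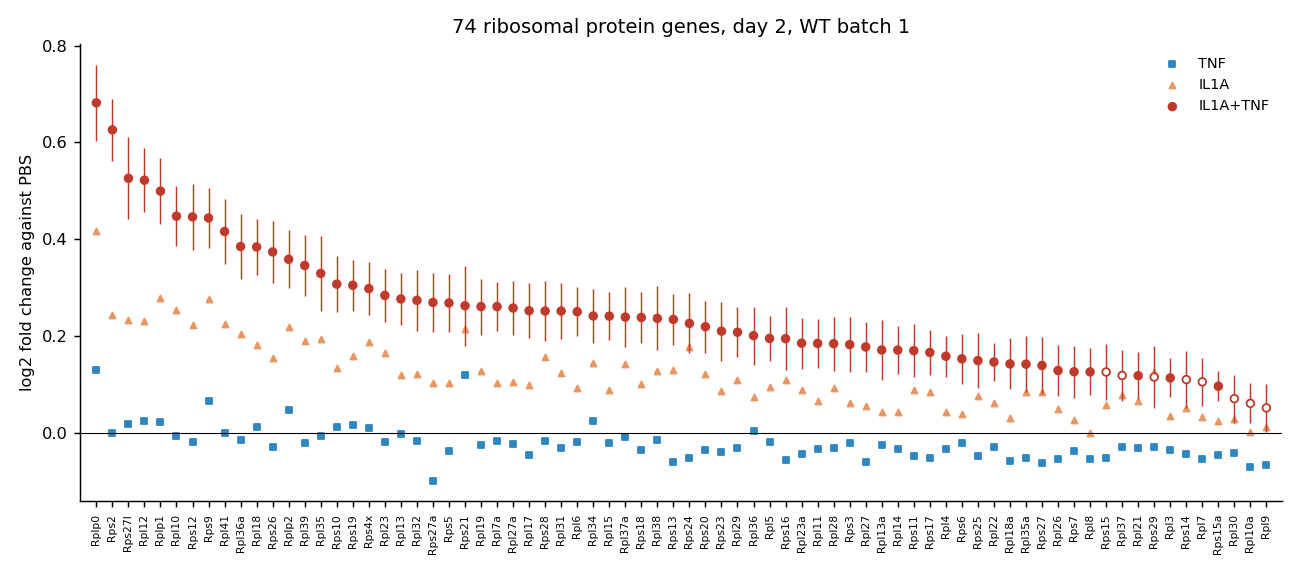
Log2 fold change against PBS at day 2 in WT retinas of batch 1 for 74 of the 75 tested ribosomal protein genes, ordered by the change after IL1A+TNF (circles with SE, filled where the FDR was under 0.05). Triangles are IL1A alone and squares TNF alone; all circles lie above 0, from 0.05 for Rpl9 to 0.68 for Rplp0, and the squares lie around 0.

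At the other end, Rpl9, a large subunit protein near the stalk (ENSMUSG00000047215, chr5:65388364-65391444, minus strand), was at 192, 226 and 271 CPM after PBS and at 198, 229 and 276 CPM after IL1A+TNF. The groups lay over each other, and the log2 fold change was 0.05 (SE 0.05, limma FDR 0.404). Rpl10a, which forms the L1 stalk, had a log2 fold change of 0.06 (SE 0.04, limma FDR 0.224), with 129, 148 and 191 CPM after PBS against 140, 153 and 187 CPM. Among the other genes that were not called were Rpl30, Rpl7, Rps14, Rps29, Rpl37 and Rps15, at log2 fold changes of 0.07 to 0.13. Rps15a, at 0.10 (SE 0.03, limma FDR 0.00855), had the smallest change among the called genes. In level per length these genes were spread over the order of the 78, from Rps15 (rank 1, 351 CPM per kb) and Rpl9 (rank 3) to Rpl37 (rank 65, 68.9 CPM per kb) and Rps15a (rank 72, 24.7 CPM per kb). Over the 75 genes, the log2 fold change correlated with the mean log2 CPM in PBS retinas at r = -0.292 and with transcript length at r = -0.0950, descriptions across genes that are not independent.

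By role, all 3 stalk genes rose (median log2 fold change 0.50), as did 37 of the 42 tested genes of the rest of the large subunit (median 0.20) and 26 of 30 of the small subunit (median 0.22). The 5S RNP genes Rpl5 (0.19, SE 0.05, limma FDR 3.11e-04) and Rpl11 (0.18, SE 0.05, limma FDR 0.00170) rose by less than the stalk genes. Rps6, whose protein is the classical substrate of S6 kinase, rose by 0.15 (SE 0.05, limma FDR 0.0119) and Rps27a, which encodes a fusion of ubiquitin with a small subunit protein, by 0.27 (SE 0.06, limma FDR 1.78e-04). The X-linked genes Rpl10 (0.45), Rpl36a (0.38), Rpl39 (0.35) and Rps4x (0.30) all rose. Of genes with known roles outside the ribosome, Rps19 rose by 0.30, Rps3, which also acts in DNA repair and NF-κB binding, by 0.18, and Rpl13a, a part of the interferon-γ-activated inhibitor of translation, by 0.17. Between paralogs, Rps27 rose by 0.14 (SE 0.06, limma FDR 0.0458) where Rps27l rose by 0.53. The Rps27 call was lost in 11 of the alternatives (0.10 to 0.14), among them edgeR, no filter on low counts, total count as a covariate and 7 of the mice left out 1 at a time. Rpl3 (0.11, SE 0.04, limma FDR 0.0153) and Rpl22 (0.15, SE 0.04, limma FDR 0.00137) also passed the test. Reads of ribosomal protein genes can also match processed pseudogenes, and adding the 214 rows named as pseudogenes of 54 of the genes left the count at 66.

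Sequences around the transcription start are given for the 4 genes with the largest and the 4 with the smallest change among those with a RefSeq start within 100 bases of that of the principal GENCODE transcript, to set the ends of this order side by side at the start site. Each is RefSeq sequence of GRCm38.p6, 5′ to 3′ on the gene's strand, with 60 bases before the annotated start and 20 from it. The starts shown lay 0 to 47 bases from it. Rpl12, 4th in size of change, is not shown because its nearest RefSeq start lay 153 bases away. Capitals mark CGGAAG on either strand (CTTCCG is its reverse complement), the core of an ETS factor motif that is common in promoters of ribosomal protein genes. The first 4 are from the upper end of the order (Rplp0, Rps2 and Rps27l at ranks 1 to 3 of 75, Rpl10 at rank 6) and the last 4 from the lower end (ranks 65, 72, 74 and 75).
Rplp0 (chr5:115559407-115559486, plus strand): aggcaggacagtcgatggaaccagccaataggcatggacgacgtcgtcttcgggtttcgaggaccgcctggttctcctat
Rps2 (chr17:24720003-24720082, plus strand): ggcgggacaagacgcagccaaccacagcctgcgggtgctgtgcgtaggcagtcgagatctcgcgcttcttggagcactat
Rps27l (chr9:66946026-66946105, plus strand): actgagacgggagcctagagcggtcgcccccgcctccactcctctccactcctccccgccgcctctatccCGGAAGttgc
Rpl10 (chrX:74270756-74270835, plus strand): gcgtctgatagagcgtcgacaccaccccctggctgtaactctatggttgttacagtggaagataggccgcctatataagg
Rpl37 (chr15:5116553-5116632, plus strand): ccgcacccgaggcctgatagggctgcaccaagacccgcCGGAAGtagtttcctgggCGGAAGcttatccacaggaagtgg
Rps15a (chr7:118116128-118116207, minus strand): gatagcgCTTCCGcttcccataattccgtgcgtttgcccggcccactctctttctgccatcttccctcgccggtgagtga
Rpl10a (chr17:28328505-28328584, plus strand): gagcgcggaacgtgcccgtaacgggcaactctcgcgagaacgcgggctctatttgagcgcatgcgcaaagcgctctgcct
Rpl9 (chr5:65391412-65391491, minus strand): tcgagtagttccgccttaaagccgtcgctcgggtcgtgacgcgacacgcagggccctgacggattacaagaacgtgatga
Within the bases shown, the motif stood in Rps27l of the first set and in Rpl37 and Rps15a of the second. In the longer windows described next, Rps2 and Rpl10 of the first set held it too. Rplp0, Rpl10a and Rpl9 did not. In the whole RefSeq windows (250 bases before and 50 after the start, 58 of the 78 genes matched), CGGAAG was found on either strand in 65.5% of the 58 windows nearest to the start of a ribosomal protein gene and in 16.9% of all 32851 windows. The tract CTTTCC within 20 bases of the start on the gene's strand was found in 17.2% of these 58 windows and in 1.95% of all windows. The 37 tested genes with CGGAAG in the nearest window had a median log2 fold change of 0.25 (from 0.10 to 0.63) after IL1A+TNF, and the 18 without it had 0.20 (from 0.05 to 0.68). For CTTTCC the medians were 0.24 with it (9 genes) and 0.25 without it (46 genes). These are matches of letters, and neither set stood apart in its range.

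After IL1A alone the same direction was found with smaller values. Of 75 genes, 16 rose and none fell, against 12% of all genes that rose, and 74 of 75 log2 fold changes were above 0 (median 0.10, median of all genes -0.01). The share of counts was 0.896%, 1.02% and 1.08% (lowest, median and highest of 9 retinas), within the range of the PBS retinas. Rplp0 was at 182, 241 and 264 CPM, which overlaps PBS, and had the largest change (log2 fold change 0.42, SE 0.08, limma FDR 6.69e-05, 9 of 9 retinas above the PBS mean). Rplp1 (0.28, limma FDR 0.00221), Rps9 (0.28, limma FDR 6.96e-04), Rpl10 (0.25, limma FDR 0.00244) and Rps2 (0.24, limma FDR 0.00465) followed. Rpl8, with 0.00 (SE 0.05, limma FDR 0.998), was the sole gene with a value below 0. In none of the 75 genes were all IL1A retinas above all PBS retinas, against 0.102% of all genes. The marker sums of other cells moved here too, with macrophages and microglia at 108.8 to 287 CPM (48.5 to 122 CPM after PBS, 7 of 7 markers higher), neutrophils at 63.3 to 346 CPM (2.40 to 129 CPM after PBS, 5 of 5 tested markers higher), rods at 21910 to 40330 CPM (32680 to 51220 CPM after PBS, 5 of 6 lower) and cones at 257 to 720 CPM (646 to 1016 CPM after PBS, 5 of 5 lower). Their part in the IL1A values was not tested. With mouse as a fixed factor, which uses only mice with 1 treated and 1 PBS eye, 1 gene was called after IL1A (Rplp0) and the median was 0.08. The count was 9 without mouse 60217 and 10 without mouse 60216. A count of 9 of 75 is about the 12% of all genes that rose in the fit of all mice. The share of all genes in these smaller fits is not given here.

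After TNF alone no ribosomal protein gene was called at day 2 by limma, edgeR or DESeq2, where limma called 0.655% of all genes, and none of the 75 had an unadjusted p under 0.05. The log2 fold changes ran from -0.10 (Rps27a, limma FDR 0.797) to 0.13 (Rplp0, limma FDR 0.787), with SEs of 0.03 to 0.10 and a median of -0.03. Rps21 (0.12), Rps9 (0.07), Rpl10a (-0.07) and Rps15a (-0.05) were among the other genes with the largest or best supported values. The share of counts was 0.739%, 0.928% and 0.994% (lowest, median and highest of 8 retinas), which overlapped the PBS range, with 1 retina (mouse 60584) below the lowest PBS retina.

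Compared directly, IL1A+TNF retinas were above TNF retinas in 65 of 75 genes (median log2 fold change 0.25, 20% of all genes higher), and 51 were called without mouse 60212. Against IL1A retinas, 2 genes were higher, Rps2 (log2 fold change 0.38, SE 0.08, limma FDR 0.00127, 10 of 10 retinas above the IL1A mean) and Rpl12 (0.29, SE 0.08, limma FDR 0.0189, 9 of 10), where 5.39% of all genes were higher. Here 74 of 75 values were above 0, with a median of 0.12, and without mouse 60212 Rps2 alone was called. The interaction of IL1A with TNF, which asks whether the combination differs from the sum of both on the log2 scale, was called for Rps2 (0.38, SE 0.11, limma FDR 0.0334), against 1.78% of all genes with a positive interaction. It was lost when any 1 of 6 mice was left out (60212, 60214, 60228, 60584, 59734 or 60588), with 14 of 75 genes at an unadjusted p under 0.05 in the fit of all mice. For female against male retinas limma, edgeR and DESeq2 called none of the 75 genes (none at an unadjusted p under 0.05 by limma, largest log2 difference 0.08 in size), where 0.363% of all genes differed.

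Genes with related functions were read beside these values. Of 8 core ribosomal proteins outside the symbol rule, 6 rose after IL1A+TNF (median 0.21), led by Rpsa, the partner of Rps2 on the small subunit (0.57, SE 0.06, limma FDR 5.66e-11). Of 19 tested elongation factors and other genes with a known TOP mRNA, 12 rose and none fell (median 0.21), with Eef1b2 (0.40) and Eef1a1 (0.39) first. Ribosome biogenesis genes rose in 27 of 32 (median 0.21), among them Rrp12 (0.35), Polr1a, the catalytic subunit of RNA polymerase I (0.33), and the helicase Ddx21 (0.31). After IL1A alone none of these 32 was called. Among 14 regulators, 7 rose, with Eif4ebp1, the translation repressor downstream of mTORC1 (1.5, SE 0.15, limma FDR 1.06e-12), and Myc (1.04, SE 0.17, limma FDR 5.96e-07) in front. Mitochondrial ribosomal proteins, the subunits of the other ribosome of the cell, had a median of 0.07 (25 of 76 rose and 4 fell). The counts of these lists after IL1A+TNF stand beside 24.9% of all genes that rose.

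Markers of other cells moved in the same retinas. The summed level of 7 macrophage and microglia markers was 48.5 to 122 CPM after PBS and 193 to 415 CPM after IL1A+TNF, and all 7 rose. The sum of 6 neutrophil markers was 2.40 to 129 CPM against 117 to 745 CPM, with 5 of 5 tested markers higher and Ly6g at a median of 0.0 in both groups. All 4 monocyte markers rose. The highest macrophage and neutrophil sums after IL1A+TNF (415 and 745 CPM) were those of mouse 60212, which also had the highest share of ribosomal protein genes. T cell markers stayed at 1.49 CPM or less in sum. The sum of 6 rod markers was 32680 to 51220 CPM after PBS and 20450 to 38200 CPM after IL1A+TNF, with 5 of 6 lower, and rhodopsin fell from a median of 2.55% to 1.28% of all counts. The sum of 5 cone markers was 646 to 1016 CPM after PBS and 146 to 732 CPM after IL1A+TNF, with 5 of 5 lower, among them Arr3 (medians 189 and 30.1 CPM) and Opn1sw (355 and 84.0 CPM). Of 7 ganglion cell markers 6 were lower (median -0.28). Of 5 Muller glia markers 2 were higher and 2 lower, with Glul at medians of 1777 and 804 CPM. Pigment epithelium markers Ttr (medians 27.25 and 8.06 CPM), Rpe65 (6.08 and 2.29 CPM) and Rlbp1 (215 and 142.6 CPM) were lower in median. Rlbp1 is also 1 of the 5 Muller glia markers, so its values do not belong to pigment epithelium alone. Mitf (13.7 and 13.5 CPM) and Best1 (0.99 and 1.08 CPM) hardly differed. The lens gene Cryaa ran from 0.0 to 2557 CPM after PBS and from 0.0 to 1797 CPM after IL1A+TNF (medians 0.12 and 7.41 CPM). Mitochondrially encoded genes fell from a median of 2.91% to 2.64% of counts. The part of these changes in the ribosomal protein values was not tested. With log2 total count as a covariate 56 genes were called (median 0.18), and with log2 mitochondrial share as a covariate, a choice made after seeing the data, 75 (median 0.32).

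The second batch gave the same comparison in other mice. In WT retinas of batch 2 alone, 67 of 75 genes rose and none fell, against 13.3% of all genes that rose, with a median log2 fold change of 0.40 (fold 1.32, median of all genes -0.02). The share of counts was 0.838%, 0.893% and 0.9997% (lowest, median and highest of 5 PBS retinas) and 1.005%, 1.29% and 1.57% in 6 IL1A+TNF retinas. The ranges did not overlap, with a narrow gap between them. The macrophage and microglia marker sum was 57.6 to 99.3 CPM after PBS and 284 to 479 CPM after IL1A+TNF, the neutrophil sum 5.74 to 21.3 CPM and 146 to 671 CPM, and the cone sum 688 to 896 CPM and 225 to 446 CPM, and the part of these changes was not tested. Rplp0 was at 156 to 199 CPM after PBS and at 252 to 454 CPM after IL1A+TNF (log2 fold change 0.94, SE 0.17, limma FDR 6.03e-04). Rps2 was at 179 to 215 CPM and at 269 to 521 CPM (0.87, SE 0.17, limma FDR 0.00122). The groups did not overlap in these or in 23 of the 75 genes in all, against 11.8% of all genes. With each mouse left out in turn, 49 to 75 genes were called. Taking log2 total count as a covariate gave 60 genes (median 0.38), and taking log2 mitochondrial share gave 60 (median 0.34).

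The batches share no mouse. The log2 fold changes of the 75 genes in WT retinas of batch 1 and of batch 2 had a Pearson r of 0.940 and a Spearman rho of 0.912 across genes, which are not independent replicates and were measured in the same retinas of each batch. Of the 10 genes with the largest change in each, 7 were shared, Rplp0, Rps2, Rpl12, Rplp1, Rps27l, Rps12 and Rpl41. At the lower end, Rps15a was last in batch 2 (0.16, SE 0.06, limma FDR 0.0669), and Rpl10a (0.19) and Rpl9 (0.19) were the next.

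**Figure D3:**
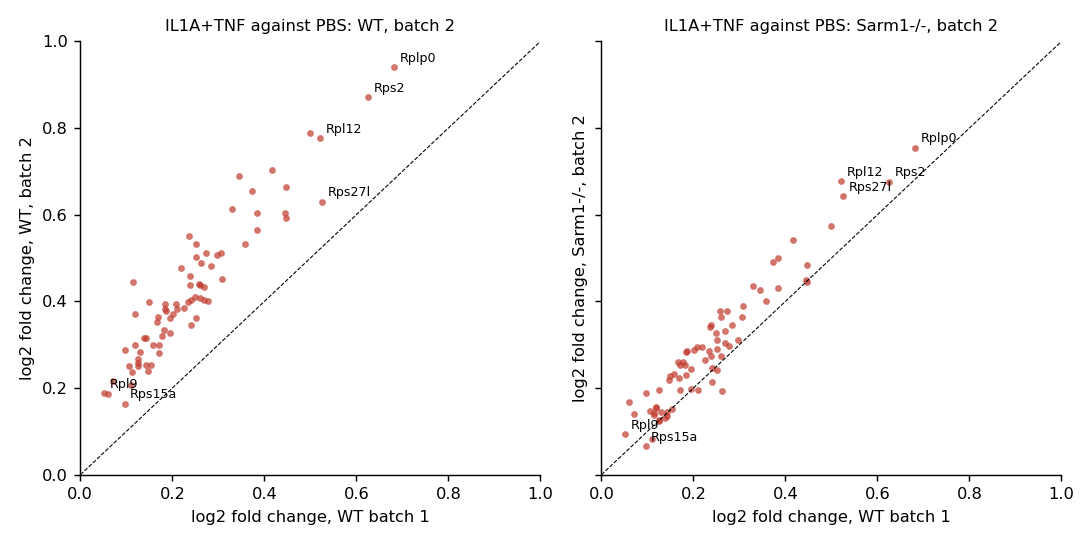
Log2 fold change after IL1A+TNF for each of 75 ribosomal protein genes in WT retinas of batch 1 (x axis) against WT retinas of batch 2 (left panel) and Sarm1-/- retinas of batch 2 (right panel), each with its own PBS retinas. The dashed line marks equal values. The points follow a line in both panels (r = 0.940 and 0.956), with Rplp0 at the upper end and Rpl9 and Rps15a at the lower end.

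Sarm1-/- retinas were compared in the same way. In the fit of both batches, 54 of 76 tested genes rose after IL1A+TNF and none fell, against 21.3% of all genes that rose, with a median of 0.27 (fold 1.21, median of all genes 0.01). The share of counts was 0.912%, 0.991% and 1.04% in the 6 PBS retinas and 1.01%, 1.28% and 1.58% in the 6 treated ones, so that the ranges overlapped. Rplp0 was at 171 to 257 CPM and at 223 to 486 CPM (log2 fold change 0.76, SE 0.14, limma FDR 1.39e-05, 6 of 6 retinas above the PBS mean). Rpl12 (0.69, SE 0.13, limma FDR 2.47e-05) and Rps2 (0.69, SE 0.13, limma FDR 1.88e-05) were next, and Rplp1 (0.58) and Rpl18 (0.50) had the next smallest FDRs. Rpl3l, at 1 to 15 counts a retina, had the sole negative value (-0.14, SE 0.48). All treated retinas were above all PBS retinas in 3 genes, against 2.89% of all genes. Without mouse 61926, 18 genes were called with a median of 0.18, and without mouse 61924, 33. The 18 genes are a share near the 21.3% of all genes that rose in the fit of all mice. The share of all genes in these smaller fits is not given here. The treated retinas of these mice had the highest shares of ribosomal protein genes in the group (1.58% and 1.44%). They also had the lowest sums of 7 ganglion cell markers (79.1 and 95.6 CPM, against 258 to 589 CPM in the other treated retinas), the highest neutrophil sums (604 and 647 CPM, against 101 to 317 CPM), the highest macrophage and microglia sums (372 and 388 CPM, against 158 to 230 CPM) and the lowest mitochondrial shares (1.82% and 1.81%, against 2.64% to 3.29%). In the 6 Sarm1-/- PBS retinas the ganglion cell sum was 571 to 630 CPM and the neutrophil sum 4.73 to 103 CPM. The part of these values in the ribosomal protein changes was not tested. The log2 fold changes with batch 2 alone (46 genes called) had r = 0.956 across genes with those of WT batch 1 and r = 0.928 with those of WT batch 2.

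**Figure D4:**
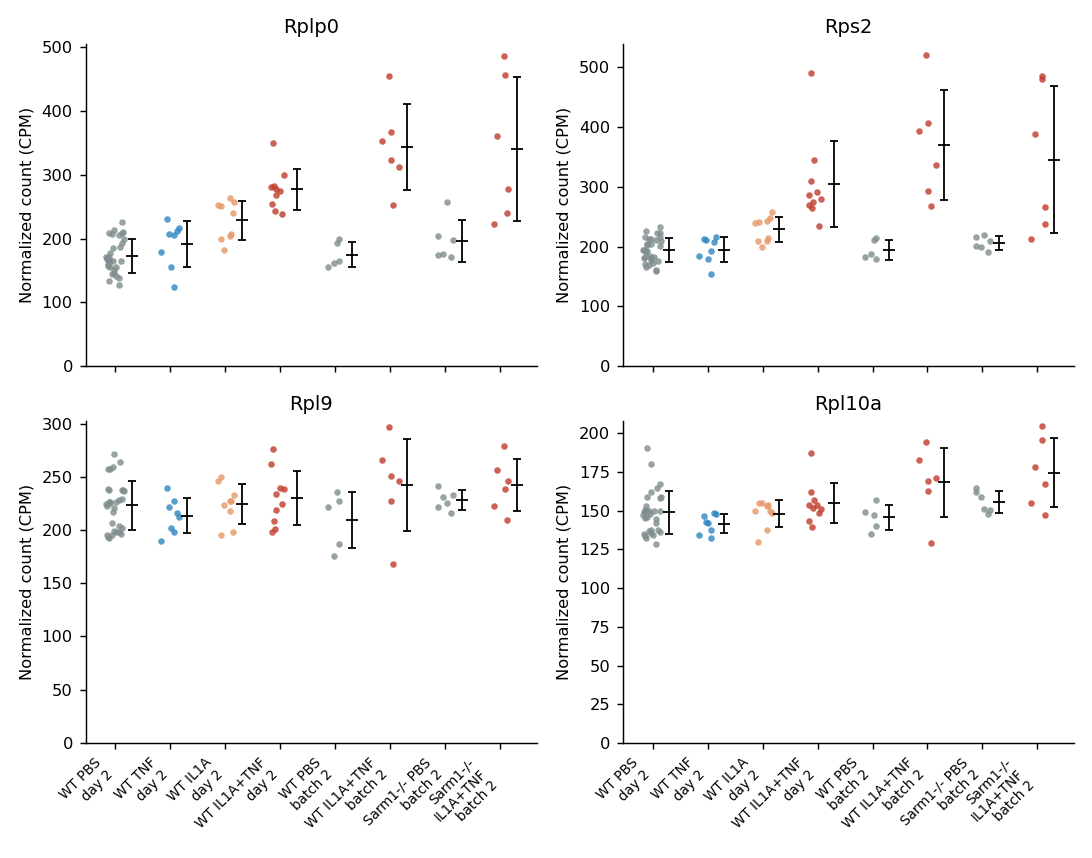
Normalized count (CPM) in each retina of day 2 for Rplp0 and Rps2, the genes with the largest change after IL1A+TNF, and for Rpl9 and Rpl10a, those with the smallest, by group. Points are retinas and bars the mean ± SD. In Rplp0 the IL1A+TNF retinas of batch 1 lie at 239 to 350 CPM, above the PBS retinas at 127 to 226 CPM, while in Rpl9 both lie between 192 and 276 CPM.

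No ribosomal protein gene was called between genotypes. In PBS retinas, limma called none of 76 (none at an unadjusted p under 0.05, none by edgeR or DESeq2, 0.0397% of all genes called), with a median log2 difference of 0.04 and SEs with a median of 0.09. In IL1A+TNF retinas none was called either (none at an unadjusted p under 0.05, median 0.05, smallest limma FDR 0.270), where 14.8% of all genes differed. For genotype by treatment, limma, edgeR and DESeq2 called none, against 8.75% of all genes called by limma, with values from -0.16 to 0.10 and a median SE of 0.11. In batch 2 alone these 3 medians were 0.12, -0.01 and -0.12, with no gene called. Of the 32 ribosome biogenesis genes, 14 were higher in Sarm1-/- than in WT retinas after IL1A+TNF in the fit of both batches (median 0.15). The 14.8% of all genes above counts both directions. Sarm1-/- retinas were all of batch 2 and WT retinas of both batches, so genotype and batch were separated only by the batch term. These genes were not compared in batch 2 alone.

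Single genes differed between the 2 batches. With treatment, genotype and sex in the fit, 11 of 76 genes were higher in batch 2 than in batch 1 and none lower, against 8.52% of all genes that were higher, with a median of 0.07. Rps21 differed most (0.50, SE 0.08, limma FDR 4.47e-06). Because batch 2 was the deeper one, depth and batch cannot be told apart, and with log2 total count as a covariate no gene was called.

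At days 14 and 35 no ribosomal protein gene was called after TNF. At day 14 limma, edgeR and DESeq2 called none of 75 (none at an unadjusted p under 0.05, 0.0% of all genes), with a median log2 fold change of -0.06 and 74 of 75 values below 0. At day 35 they called none either (3 at an unadjusted p under 0.05, 0.0% of all genes), with a median of -0.05. The effect of TNF at day 14 or day 35 was not shown to differ from that at day 2 in any gene (limma, edgeR and DESeq2, 0.0% of all genes called, medians -0.03 and -0.03, SEs of 0.05 to 0.16).

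The PBS retinas themselves differed with the day after injection. At day 14, 18 of 75 genes were lower than at day 2 and none higher, against 10.5% of all genes that were lower, with a median of -0.13 (fold 0.913) and 73 of 75 values below 0. Rplp0 fell most (-0.35, SE 0.08, limma FDR 0.00114, 0 of 7 retinas above the day 2 mean), followed by Rpl10 and Rps24, both at -0.29. At day 35, 7 genes were lower and none higher, against 17.4% of all genes that were lower, so that 7 of 75 is a smaller share than that of all genes. Rplp0 was lowest here too (-0.38, SE 0.08, limma FDR 3.69e-04), and Rps24 (-0.25), Rpl10 (-0.23), Rpl41 (-0.23), Rps27a (-0.23), Rps12 (-0.19) and Rps9 (-0.18) were the others. Both comparisons use the same day 2 retinas. Where the opposite eye was also sequenced, it had received TNF, IL1A or IL1A+TNF at day 2, but only TNF or PBS at days 14 and 35. The comparisons did not separate day from the treatment of the opposite eye, and its part was not tested. The 7 macrophage and microglia markers were all lower at day 14 as well (median -1.45), and their part in these values was not tested. With log2 total count as a covariate 3 genes were called at day 14 (Rplp0, Rpl10 and Rps24), and 9 were called without mouse 59738. At day 35 the count was 3 without mouse 59736 and 4 without mouse 59896.

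**Figure D5:**
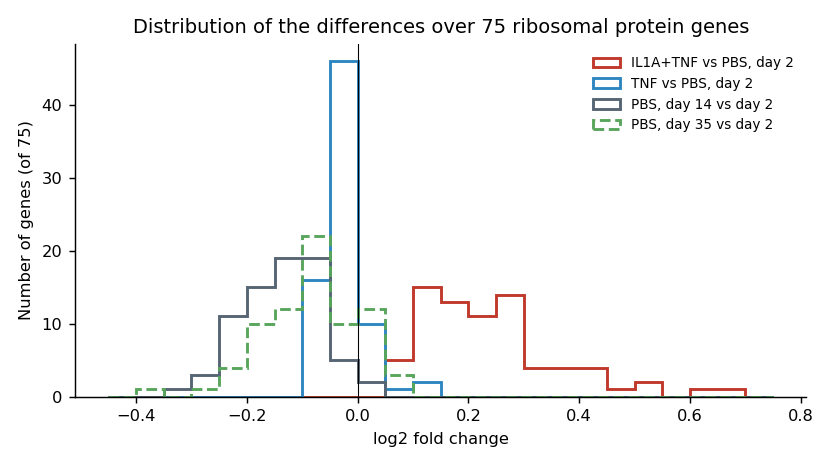
Distribution of log2 fold changes over the 75 ribosomal protein genes in 4 comparisons of WT batch 1 retinas, in bins of 0.05. After IL1A+TNF the genes lie at 0.05 to 0.68, after TNF at -0.10 to 0.13, and the PBS retinas of days 14 and 35 lie mostly below those of day 2 (medians -0.13 and -0.08); the comparisons share the day 2 PBS retinas.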

How the data were processed

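Retinal poly(A) RNA was sequenced in 109 retinas. The authors aligned the reads to mm10 with STAR 2.7.9a and counted them per gene with featureCounts of Subread 2.0.1, and the deposited values are these raw counts. The annotation release is not given in the sources used here, so gene identifiers were matched to GENCODE M21. Whether counting used strand is not given either. The members and lists were chosen with earlier results of these data known. Genes were filtered (count of at least 10, total of at least 15) and scaled by TMM in edgeR 4.0.16, then fitted with voom and limma 3.58.1 in R 4.3.3 with sex as a covariate and the mouse as a random block (2 rounds). Block correlations were 0.0515 at day 2, 0.284 at day 14 and 0.0794 at day 35, and PBS retinas of different days were fitted without it, though the 7 PBS retinas of day 14 came from 6 mice. p-values were adjusted over all genes of a fit (Benjamini-Hochberg, FDR under 0.05). Alternatives were edgeR and DESeq2 1.42.0, other scalings and filters, covariates, and each mouse left out. The fits were run on simulated counts with known changes, in which genes varied independently and the 2 eyes of a mouse were not linked. Such data cannot check calls for genes that vary together. Both eyes of 45 mice were used, and the deviations of the 2 eyes over ribosomal protein genes had a median correlation of 0.00041 (from -0.528 to 0.504). Named genes were those with the smallest FDR or largest change in each comparison, those with the smallest change, and genes of set roles. The harvest text of the labels gives 2 days for all retinas, while their time labels give 2, 14 or 35, which were used. Values of 1 of the genes are counted but not reported here by name. Correlations across retinas carry no p-value. The 70 RefSeq windows of 58 members were searched for CTTTCC and CGGAAG.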

Additional observations from a re-analysis of the deposited data

Results flagged for a closer look

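With about 1 in 20 groups expected to be marked by chance, 26 of 319 tests of a gene or share in a group of 4 to 10 retinas found a retina far from the others, all in 5 mice. Most came from 1 retina, the IL1A+TNF eye of mouse 60212 (WT, day 2, batch 1), whose ribosomal protein share of 1.44% stood above the next value of 1.18%. It was also the highest retina, in CPM, for Rps2 (490.6), Rpl8 (330.7), Rpl13a (363.7), Rplp1 (295.7), Rps15 (252.6), Rps9 (251.2), Rpl12 (237.9), Rps6 (233.4), Rpl10a (187.0), Rpl11 (138.8), Rpl18 (129.9), Rplp2 (108.6), Rps19 (88.3), Rps21 (81.3) and Rpl36a (72.8). This retina had the highest macrophage and microglia (415 CPM), monocyte (85.9 CPM) and neutrophil (745 CPM) marker sums of its group, a total count of 36883363 and a mitochondrial share of 2.27%, and the part of these values was not tested. The PBS eye of the same mouse had a share of 0.948%.

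In WT retinas 14 days after TNF, the retina of mouse 59709 was the highest, in CPM, for Rpl3 (386.3), Rpl13a (256.5), Rpl8 (234.3), Rps27a (166.2), Rpl5 (162.1), Rplp1 (146.6) and Rps15a (143.7). The other 3 were low values. Rps27l was lowest in the day 2 TNF retina of mouse 60584 (5.16 CPM), and Rpl22 was lowest in the Sarm1-/- PBS retina of mouse 61926 (97.0 CPM) and in the WT IL1A+TNF retina of mouse 61722 in batch 2 (96.9 CPM).

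The effect of IL1A on Rps2 differed with and without TNF, by an interaction of 0.383 on the log2 scale (SE 0.11, limma FDR 0.0334), and this call was lost when any 1 of 6 mice was left out.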

How the results depend on the processing

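In no comparison did an alternative call ribosomal protein genes in the opposite direction to the main fit. The median log2 value did change sign in some comparisons where the alternative called no gene. For batch 2 against batch 1 it was 0.07 in the main fit and -0.02 with total count as a covariate. For genotype by treatment it was 0.005 in the main fit and -0.12 in batch 2 alone. For Sarm1-/- against WT after IL1A+TNF it was 0.05 and -0.01 in these fits. The count of ribosomal protein genes higher after IL1A+TNF at day 2 ran from 56 to 75 over the alternatives and from 53 to 69 with each treated mouse left out. After IL1A it was 33 with total count scaling, 42 with log2 mitochondrial share as a covariate and 9 to 19 with a mouse left out. With mouse as a fixed replicate block it was 1 after IL1A, 69 after IL1A+TNF and 0 after TNF. Without a replicate block these counts were 16, 64 and 0, and pairing the eyes otherwise changed no count by over 1.5 times. For IL1A+TNF against IL1A it was 6 by DESeq2, 12 with total count scaling, 55 with the mitochondrial covariate, 4 with the genes outside the pattern added and 1 to 7 with a mouse left out. For IL1A+TNF against TNF it was 43 with total count as a covariate and 51 to 71 with a mouse left out. The interaction gave 0 without the filter, 6 with the mitochondrial covariate, 2 with the genes outside the pattern and 0 to 1 with a mouse left out. In PBS retinas the count lower at day 14 was 34 with total count scaling, 3 with total count and 68 with mitochondrial share as a covariate, and 9 to 19 with a mouse left out. At day 35 it was 26, with mitochondrial share 20, and 3 to 6 with a mouse left out. In Sarm1-/- retinas it was 18 to 55 with a mouse left out, and in WT retinas of batch 2 49 to 75. For batch 2 against batch 1 it was 19 without the filter and 0 with total count as a covariate. With mitochondrial and rhodopsin counts left out of the total, the share was 0.862% in PBS retinas of day 14, 0.876% in those of day 35 and 1.04% in Sarm1-/- PBS retinas. These shares are over a smaller total than the shares given elsewhere in the text and cannot be set beside them. The cause of the shifts between alternatives was not tested. Mitochondrial share as a covariate, and leaving out mice of batch 1 at day 2 or PBS mice of later days, were chosen after seeing the data.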
